A study of Mus musculus with 8 samples.

Results

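The genes examined were the potassium channel genes of the olfactory mucosa, taken as every gene whose symbol starts with Kcn. They were found as the array clusters whose annotation names exactly 1 gene with such a symbol, which gave 92 genes of 19938. A cluster is the array's unit of measurement, in which the probes for all exons of a gene are merged into 1 signal. These 92 genes had 95 clusters, and where a gene had more than 1, the brightest by its mean over the 8 arrays stood for it. The symbol also admitted 4 genes that encode no channel subunit, the channel regulator Kcnrg and the antisense transcripts Kcnd3os, Kcnmb4os1 and Kcnmb4os2. RNA was measured in olfactory mucosa of mice at postnatal day 1, with 1 mouse per Affymetrix Mouse Gene 1.0 ST array and 4 mice in each group. The knockouts were OmpCre:Emx2(fl/fl), in which both floxed copies of the homeodomain factor gene Emx2 could be deleted by Cre. Controls 1 to 3 were OmpCre:Emx2(fl/+) littermates with 1 floxed copy, and control 4 was an Emx2(fl/fl) littermate without Cre. All 8 mice were of a mixed 129 x C57BL/6J background. Cre was knocked into Omp, a gene of mature olfactory sensory neurons (OSNs), so the other cells of the mucosa were not targeted. The comparison asked which mRNAs of the tissue depend on Emx2 in mature OSNs.

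Potassium channels let potassium leave the cell and so pull the membrane voltage back towards rest after excitation. Pore subunits of the voltage-gated group (Kcna to Kcnd, Kcnh, Kcnq and the silent subunits Kcnf, Kcng, Kcns and Kcnv) open on depolarisation, those of Kcnma, Kcnn and Kcnt open on a rise of calcium or sodium inside the cell, and inward rectifiers (Kcnj) and two-pore-domain channels (Kcnk) set the resting voltage. The auxiliary subunits Kcnab, Kcne, Kcnip and Kcnmb bind a pore and change its opening or its delivery to the membrane. In the olfactory epithelium, potassium channels repolarise OSNs after the odor response, and in supporting and glandular cells they drive the secretion of fluid and ions.

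Promoter sequence was read for the Kcn genes that differed most between the groups, because Emx2 binds DNA through a homeodomain, a fold whose members often recognise TAAT. The source was a table of promoter sequences for the annotated starts in RefSeq (GRCm38.p6), and 70 of the 92 genes were found in that table. Counts over genes were read in the whole listed sequence, which may run past the start. The windows of single genes were cut to the 250 bases before the start. TAAT on either strand stood in 35 of the 70 (50%), against 61.4% of the 27025 genes in the table. The longer palindrome TAATTA, which contains TAAT, stood in 0 of the 70, against 6.12% of all. As a further motif, the Ebf-type half-site pair CCCNNGGG, read on both strands, stood in 15 of the 70 (21.4%), against 15.4% of all. Among the 9 Kcn genes with a limma p under 0.05 described below, 7 had a window. TAAT stood in those of Kcnab2, Kcna6 and Kcnt2, CCCNNGGG in that of Kcnh1, and neither in those of Kcna5, Kcng3 and Kcnmb3. The 4 windows that held a match are shown 5′ to 3′ on the gene's own strand, with TAAT (or ATTA, its reverse) and CCCNNGGG in capitals. They lie upstream of the first base of the transcript, at chr4:152477550-152477799 (minus strand, the most distal of several Kcnab2 starts), chr6:126740675-126740924 (minus strand, Kcna6), chr1:140245468-140245717 (plus strand, Kcnt2) and chr1:192190527-192190776 (plus strand, Kcnh1). A match gives letters in a window and was not tested as a binding site.
Kcnab2: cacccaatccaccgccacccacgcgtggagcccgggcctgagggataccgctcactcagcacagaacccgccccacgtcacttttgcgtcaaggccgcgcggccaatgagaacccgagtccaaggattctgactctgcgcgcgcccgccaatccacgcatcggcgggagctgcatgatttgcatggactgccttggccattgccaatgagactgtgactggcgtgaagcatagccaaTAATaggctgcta
Kcna6: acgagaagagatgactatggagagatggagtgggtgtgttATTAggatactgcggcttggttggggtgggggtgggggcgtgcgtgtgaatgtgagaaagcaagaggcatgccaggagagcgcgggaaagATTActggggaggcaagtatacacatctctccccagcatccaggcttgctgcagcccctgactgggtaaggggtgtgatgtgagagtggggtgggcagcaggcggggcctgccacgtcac
Kcnt2: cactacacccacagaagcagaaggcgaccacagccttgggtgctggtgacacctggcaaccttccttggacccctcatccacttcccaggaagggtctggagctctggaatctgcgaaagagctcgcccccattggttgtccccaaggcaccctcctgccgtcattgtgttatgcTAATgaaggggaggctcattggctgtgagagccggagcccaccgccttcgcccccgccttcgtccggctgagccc
Kcnh1: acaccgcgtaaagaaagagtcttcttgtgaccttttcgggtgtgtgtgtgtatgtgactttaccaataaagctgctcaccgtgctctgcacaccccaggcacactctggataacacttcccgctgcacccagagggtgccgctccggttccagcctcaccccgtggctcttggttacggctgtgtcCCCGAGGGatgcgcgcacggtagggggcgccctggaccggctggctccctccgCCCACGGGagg

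Signals are on a log2 scale, so a difference of 1 is a doubling. Probes of different genes bind with different strength, so the order of signals between genes is not an order of RNA amounts. As a guide to what the array gives for genes with little RNA in this tissue, 20 measured genes of other organs lay between 5.37 and 9.43 (median 7.03). The highest of these was Gh, growth hormone of the pituitary, and the next stood at 7.96. The 92 Kcn genes ran from 6.42 for Kcnc2, a fast voltage-gated pore, to 11.35 for Kcnrg, with a median of 8.63. The median of all 21789 clusters with 1 gene symbol was 9.17, and 26 Kcn genes lay above it. Above 7.96 lay 55 of the 92, above 9.43 lay 21, and 8 lay below 7.03.

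**Figure D1:**
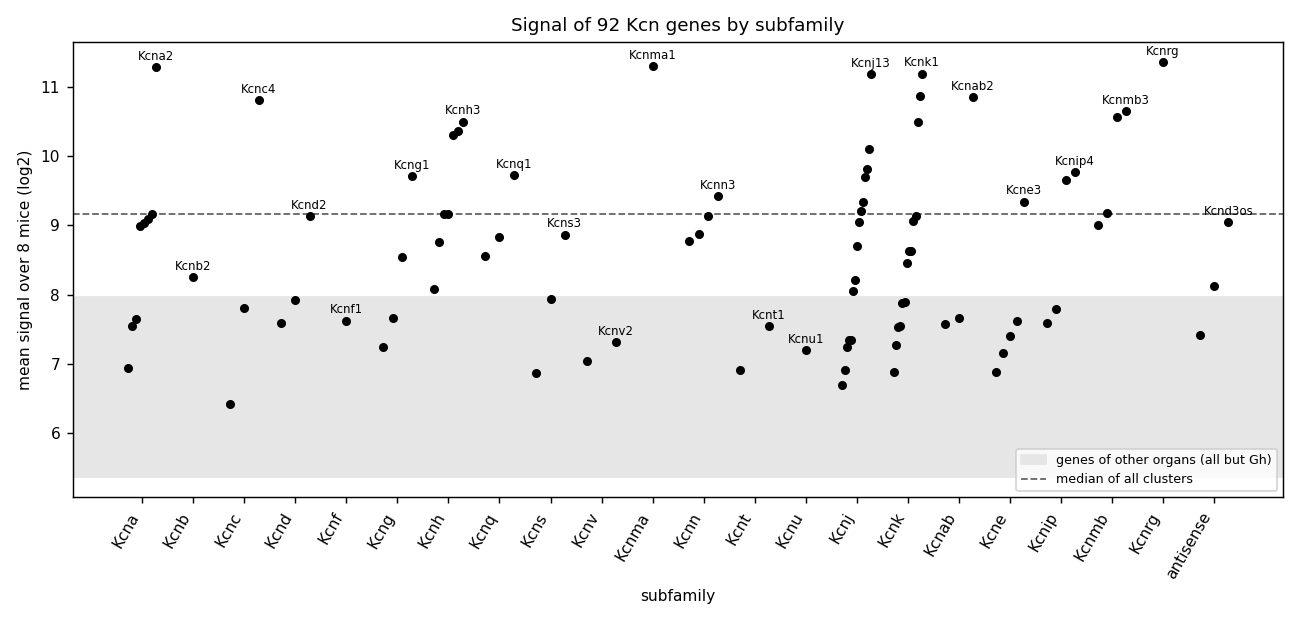
Each point is the mean log2 signal of 1 Kcn gene over the 8 mice (vertical axis), grouped by subfamily (horizontal axis) and labelled at the highest gene. The grey band spans the genes of other organs other than Gh (5.37 to 7.96) and the dashed line is the median of all 21789 clusters (9.17). In most subfamilies the highest gene stands above the band, and in Kcnf, Kcnv, Kcnt and Kcnu every gene lies within it.

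Of the 35 voltage-gated pore genes, 21 lay above 7.96 and 7 above the median of all clusters. Kcna2, the Kv1.2 subunit of axonal delayed rectifiers, had the highest signal among them. Its signal was 11.48, 11.32, 11.24 and 11.32 in controls 1 to 4 and 11.18, 11.27, 11.29 and 11.23 in knockouts 1 to 4. The 7 other Kcna genes measured lay between 6.93 (Kcna4) and 9.16 (Kcna6). Kcnc4, the rapidly inactivating Kv3.4 subunit, stood apart from Kcnc1 (7.81) and Kcnc2 (6.42). It gave 11.00, 10.78, 10.78 and 10.94 in controls and 10.70, 10.71, 10.87 and 10.68 in knockouts. In the Kcnh subfamily all 7 genes lay above 7.96, and the ELK-type genes Kcnh3 (10.50), Kcnh4 (10.36) and Kcnh8 (10.30) were the highest. Kcnh3 read 10.53, 10.56, 10.41 and 10.69 in controls and 10.28, 10.41, 10.66 and 10.45 in knockouts, so the groups overlapped. Kcnq1, the pore of slow epithelial and cardiac currents, led its subfamily at 9.72, above Kcnq5 (8.84) and Kcnq3 (8.56). The A-type pore Kcnd2 led Kcnd at 9.14, with 8.85, 9.22, 9.01 and 9.18 in controls and 9.52, 9.07, 9.10 and 9.13 in knockouts. Among the silent subunits, which work only in complexes with other pores, Kcng1 (9.72) and Kcns3 (8.87) were the highest of Kcng and Kcns. Kcng1 varied little, from 9.67 to 9.76 in controls and from 9.57 to 9.80 in knockouts. Kcns3 gave 8.99, 8.81, 8.84 and 9.001 in controls and 8.83, 8.72, 8.85 and 8.91 in knockouts. Both Kcnv genes (7.05 and 7.32) and Kcnf1 (7.63) lay below 7.96, within the range of the genes of other organs other than Gh.

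Of the 8 pore genes of the Kcnma, Kcnn, Kcnt and Kcnu subfamilies, Kcnma1, the pore of the large-conductance BK channel, had the highest signal at 11.30. It varied little between mice, with 11.44, 11.28, 11.26 and 11.33 in controls and 11.22, 11.32, 11.29 and 11.26 in knockouts. The 4 Kcnn genes, for small- and intermediate-conductance channels, lay close together between 8.78 (Kcnn2) and 9.43 (Kcnn3). Kcnn3 gave 9.37, 9.57, 9.33 and 9.59 in controls and 9.50, 9.38, 9.36 and 9.33 in knockouts. The sodium-activated pores Kcnt1 (7.54) and Kcnt2 (6.91) and the sperm channel Kcnu1 (7.20), which opens on voltage and alkaline pH, lay below 7.96. That is the range of the genes of other organs other than Gh.

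Inward rectifiers spread widely, from 6.69 (Kcnj6) to 11.18 (Kcnj13), and 10 of 15 lay above 7.96. Kcnj13, the Kir7.1 channel of ion-transporting epithelia, read 11.34, 10.75, 11.08 and 11.23 in controls and 11.17, 11.32, 11.23 and 11.36 in knockouts. Its lowest value was that of control 2, and the groups overlapped. Next came Kcnj15 (10.11), Kcnj5 (9.81), Kcnj2 (9.70), Kcnj16 (9.33) and the ATP-sensitive Kcnj8 (9.21). The G-protein-gated neuronal subunits Kcnj3 (8.70), Kcnj6 (6.69) and Kcnj9 (7.35) were lower than their partner Kcnj5 on this scale.

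The two-pore-domain genes were led by Kcnk1 (11.19), Kcnk10 (10.87) and Kcnk2 (10.50), the only 3 of 14 above the median of all clusters. Kcnk1 (TWIK-1) gave 11.09, 11.32, 11.15 and 11.24 in controls and 11.21, 11.08, 11.29 and 11.16 in knockouts. Kcnk10 and Kcnk2 encode the mechano- and lipid-sensitive leak channels TREK-2 and TREK-1. Kcnk10 gave 10.99, 10.92, 10.85 and 10.95 in controls and 10.85, 10.71, 10.99 and 10.72 in knockouts, so that knockouts 2 and 4 were the lowest mice and knockout 3 was level with control 1.

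Among the 16 auxiliary subunit genes, the highest were Kcnab2 (10.86), Kcnmb3 (10.65) and Kcnmb2 (10.57), partners of Kcna pores and of Kcnma1. Kcnab1 (7.58) and Kcnab3 (7.66), the other genes of the Kcnab type, lay below 7.96, within the range of the genes of other organs other than Gh. Kcnmb2 gave 10.72, 10.62, 10.52 and 10.64 in controls and 10.42, 10.48, 10.66 and 10.50 in knockouts. All 4 Kcnmb genes lay above 7.96. Of the calcium-binding Kcnip subunits of Kcnd pores, Kcnip4 (9.77) and Kcnip3 (9.66) were well above Kcnip2 (7.79) and Kcnip1 (7.59). Kcnip4 read 9.96, 9.46, 9.57 and 9.99 in controls and 9.83, 9.82, 9.88 and 9.66 in knockouts. Kcne3 (9.34) was the only one of the 5 Kcne genes above 7.96.

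Kcnrg, whose product resembles the assembly domain of voltage-gated channels and holds some of them inside the cell, had the highest signal of all. Its signal was 11.10, 11.54, 11.37 and 10.95 in controls and 11.42, 11.49, 11.42 and 11.54 in knockouts. The knockouts lay in the upper part of the control range. Of the antisense transcripts, Kcnd3os was at 9.05, with 8.99 to 9.19 in controls and 8.89 to 9.08 in knockouts, while its sense gene Kcnd3 was at 7.92. The sources do not say whether the values tell an antisense transcript from its sense gene, so the values of both are uncertain.

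Before the groups were compared, the arrays were checked against their labels. Emx2 was lower in every knockout (10.14 to 10.34) than in any control (10.58 to 10.89), a difference of -0.55 ± 0.08 (SE, limma adjusted p = 0.201). Its cluster may merge probes within and outside the deleted stretch, which the sources do not map. It may thus check the deletion only in part. Omp, the defining gene of mature OSNs, was at 12.56 to 13.43 in controls and 12.60 to 12.91 in knockouts. Control 2 stood apart in a list of 13 myeloid genes, at 10.31 where the other 7 mice lay between 8.94 and 9.11. Y-linked signal was high in controls 2, 3 and 4 and knockout 3 (10.53 to 10.72) and low in control 1 and knockouts 1, 2 and 4 (7.05 to 8.09), so sex was not balanced between the groups.

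No Kcn gene differed between knockouts and controls after adjustment over all clusters. The smallest adjusted p among them was 0.739 (limma, Benjamini-Hochberg, 21789 clusters), and 0% of all clusters passed 0.05. At an unadjusted limma p under 0.05, 4 Kcn genes were higher in knockouts (Kcnh1, Kcng3, Kcnt2 and Kcnq1) and 5 were lower (Kcnab2, Kcna5, Kcnk3, Kcnmb3 and Kcna6). These were 4.35% and 5.43% of the 92, against a background of 2.62% higher and 2.55% lower over all clusters. Genes that vary together between mice are not independent, and whether the Kcn genes differ from the background was not tested. The per-gene test named in the study's methods gave 3 higher and 3 lower at that level (2.46% and 2.5% of all clusters), and none after adjustment. Counts moved with single mice, to 7 higher without control 2 (2.11% of all clusters), and to 2 lower without control 4 or without knockout 2 (1.85% and 2.14%). Over the 92 genes, 44 were higher and 48 lower, with a median difference of -0.0064 against 0.0024 for all clusters.

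**Figure D2:**
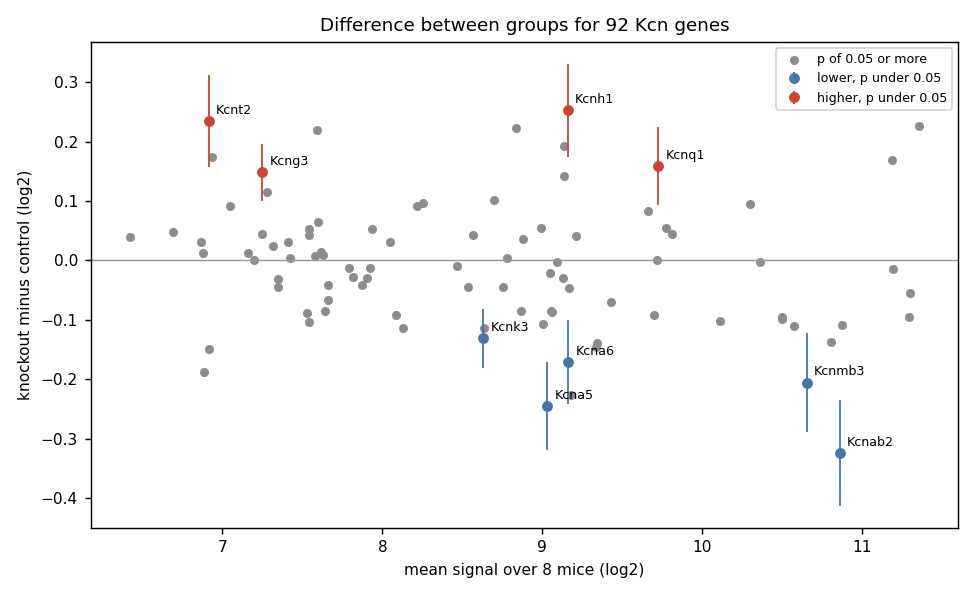
Each point is 1 of 92 Kcn genes, with its mean log2 signal over 8 mice on the horizontal axis and knockout minus control (log2) on the vertical axis. Coloured points had a limma p under 0.05 before adjustment and bars are their SE. The differences lie between -0.32 (Kcnab2) and 0.25 (Kcnh1), and all are small against a doubling.

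The lower genes were a pair of Kcna pores with their partner Kcnab2, a BK auxiliary subunit and an acid-sensitive leak channel. Kcnab2 encodes the cytoplasmic beta subunit that binds Kcna pores and promotes their delivery to axons. Its signal was 11.15, 10.96, 10.80 and 11.17 in controls and 10.65, 10.62, 10.82 and 10.70 in knockouts. Knockout 3 was level with control 3, and the other knockouts were below every control. The difference was -0.32 ± 0.09 (SE, 0.799-fold, limma adjusted p = 0.739). Kcna5, the Kv1.5 pore, gave 9.23, 9.12, 8.98 and 9.28 in controls and 8.86, 8.82, 9.01 and 8.95 in knockouts. The groups again overlapped only through control 3 and knockout 3, with a difference of -0.24 ± 0.07 (limma adjusted p = 0.823). Kcna6, the Kv1.6 pore, gave 9.36, 9.20, 9.11 and 9.32 in controls and 9.15, 9.03, 8.97 and 9.16 in knockouts. Here knockouts 1 and 4 lay above control 3, and the difference was -0.17 ± 0.07 (limma adjusted p = 0.909). In the RefSeq gene table the coding genes Kcna5, Kcna1 and Kcna6 follow one another on chromosome 6. Kcna1, between the other two, read 9.13, 8.94, 9.11 and 9.18 in controls and 9.10, 9.05, 9.08 and 9.12 in knockouts, all within the control range.

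Kcnmb3, a beta subunit of the BK channel, gave 10.92, 10.74, 10.52 and 10.84 in controls and 10.49, 10.57, 10.62 and 10.51 in knockouts. Control 3 lay among the knockouts, and the difference was -0.21 ± 0.08 (limma adjusted p = 0.909). Kcnk3, the acid-sensitive TASK-1 channel, gave 8.66, 8.62, 8.75 and 8.75 in controls and 8.61, 8.55, 8.49 and 8.61 in knockouts. It was the only Kcn gene with every knockout below every control (background 1.48% of clusters), by a difference of -0.13 ± 0.05 (limma adjusted p = 0.909).

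**Figure D3:**
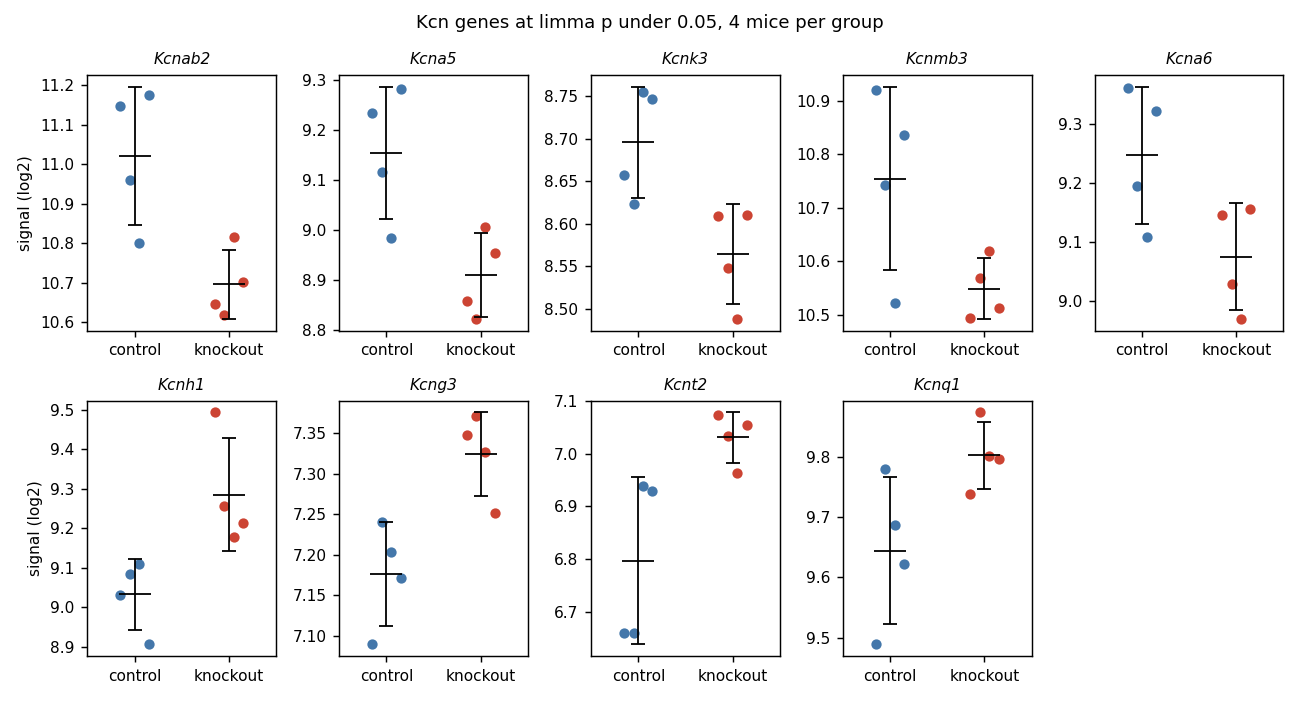
Log2 signal (vertical axis, a separate range in each panel that does not start at 0) of the 9 Kcn genes with an unadjusted limma p under 0.05, by group. Points are mice, horizontal lines are group means and bars are 1 SD (n = 4). The groups are apart in Kcnk3, Kcnh1, Kcng3 and Kcnt2 and overlap in the others.

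The 4 higher genes were all voltage-gated or sodium-activated pores. Kcnh1, the EAG1 channel of neurons, gave 9.03, 9.08, 9.11 and 8.91 in controls and 9.49, 9.26, 9.18 and 9.21 in knockouts. Knockout 1 was the highest of all, and the difference was 0.25 ± 0.08 (SE, 1.19-fold, limma adjusted p = 0.841). Kcng3, a silent subunit that joins Kcnb pores, gave 7.09, 7.24, 7.20 and 7.17 in controls and 7.35, 7.37, 7.33 and 7.25 in knockouts. Kcnt2, a sodium-activated pore, gave 6.66, 6.66, 6.94 and 6.93 in controls and 7.07, 7.03, 6.96 and 7.05 in knockouts. The differences were 0.15 ± 0.05 for Kcng3 and 0.23 ± 0.08 for Kcnt2 (limma adjusted p = 0.876 for both). In Kcnh1, Kcng3 and Kcnt2 the groups did not overlap, which 1.62% of all clusters showed in this direction. Kcng3 and Kcnt2, however, lay below 7.96, within the range of the genes of other organs other than Gh. Their signals are thus close to those of genes with little RNA here. Kcnh1 (9.16), like Kcna5, Kcna6 and Kcnk3 among the lower genes, lay between 7.96 and the 9.43 of Gh. Kcnq1 gave 9.49, 9.78, 9.69 and 9.62 in controls and 9.74, 9.88, 9.80 and 9.80 in knockouts. The groups overlapped through control 2 and knockout 1, and the difference was 0.16 ± 0.07 (limma adjusted p = 0.909).

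Leaving out each mouse in turn kept Kcnab2, Kcna5, Kcnh1, Kcng3 and Kcnt2 at an unadjusted limma p under 0.05 in 8 of 8 cases. Kcnk3 and Kcna6 kept it in 4, Kcnq1 in 3 and Kcnmb3 in 2. Within the mice of high Y-linked signal (3 controls and 1 knockout) and within those of low signal (1 control and 3 knockouts), all 9 genes differed in the same direction as over all mice. Kcnab2 differed by -0.16 and -0.49 in these subsets, Kcna5 by -0.12 and -0.36, Kcnh1 by 0.14 and 0.29, and Kcnt2 by 0.12 and 0.39. These subsets hold 1 mouse in one group and were not tested. The 9 genes were chosen by their difference over the same mice, which favours a shared direction. In Kcnk3, Kcnh1, Kcng3 and Kcnt2 the groups did not overlap, so any subset had to keep the direction. With Y-linked signal as a covariate in the fit, Kcnh1 (0.19) and Kcnmb3 (-0.23) were no longer at an unadjusted limma p under 0.05, and the other 7 were.

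Signal of mature OSN genes also differed between mice. The mean of 26 measured mature OSN genes, led by Omp, was 11.70, 11.56, 11.40 and 11.67 in controls and 11.40, 11.46, 11.61 and 11.48 in knockouts. Control 3 was the lowest control and knockout 3 the highest knockout in that mean, in Kcnab2, in Kcna5 and in Kcnmb3. Kcna6 shared this order among the controls, but knockout 3 was its lowest knockout. In a whole tissue, fewer cells of a type and less RNA per cell cannot be told apart. With each array scaled to equal signal of the mature OSN list, a form of the adjustment used in the study, the median of all clusters moved from 0.0024 to 0.0960. Kcnab2 was then at -0.23 and was the 1 lower Kcn gene left at an unadjusted limma p under 0.05, a level that 0.418% of all clusters then reached in this direction and 4.99% in the other. Kcna5 was at -0.15, Kcnmb3 at -0.11, Kcna6 at -0.08 and Kcnk3 at -0.04. The higher genes moved up with all clusters, to 0.35 for Kcnh1, 0.33 for Kcnt2, 0.24 for Kcng3 and 0.25 for Kcnq1. Over the 26 genes of the mature OSN list the median difference before scaling was -0.0434, with 8 higher and 18 lower. At an unadjusted limma p under 0.05, 1 of them was higher and 6 were lower, against 2.62% and 2.55% of all clusters. The study reports that conditional Emx2 deletion left the numbers of mature and immature OSNs unaffected. The part of mature OSN number in these values was not tested.

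**Figure D4:**
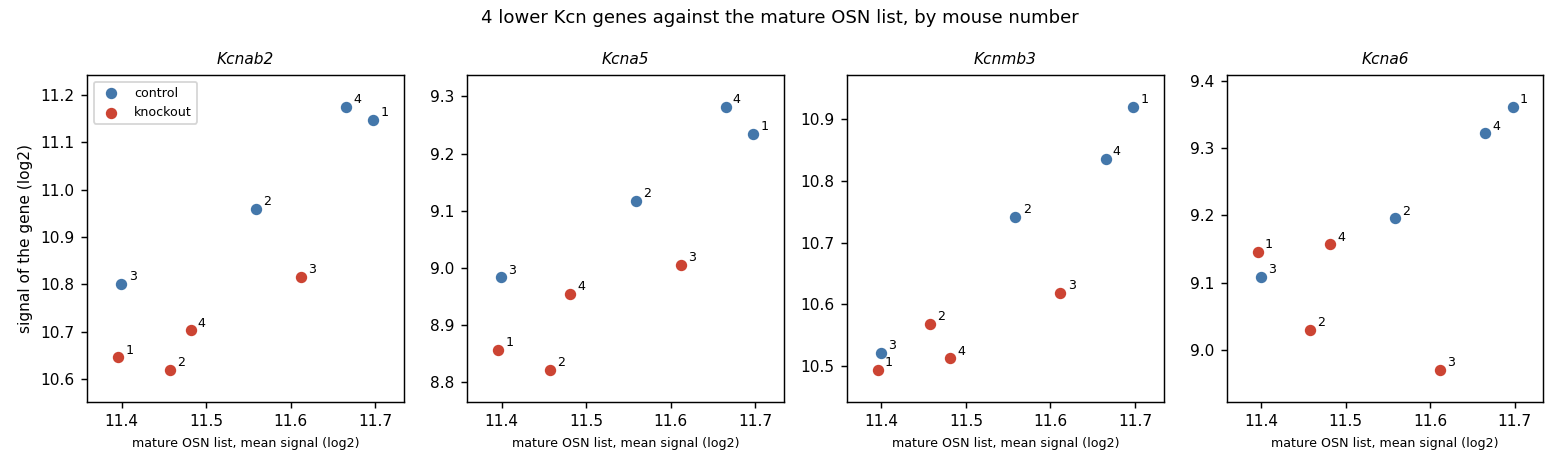
Log2 signal of Kcnab2, Kcna5, Kcnmb3 and Kcna6 in each mouse (vertical axes, separate ranges) against the mean log2 signal of 26 mature OSN genes in the same mouse (horizontal axes). Blue points are controls, red points knockouts, and numbers are the mouse numbers. Control 3 stands at 11.40 on the horizontal axis among the knockouts, and knockout 3 stands at 11.61 among the controls. Kcnab2 in knockout 3 is at 10.82, below controls 1, 2 and 4.

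Among subfamilies of 3 or more genes, Kcnmb and Kcnq had 1 direction throughout. Kcnk had a single exception, as did the smaller subfamilies Kcnab, Kcnc, Kcnd, Kcne, Kcnip, Kcnn and Kcns. In Kcnk, 13 of 14 genes were lower in knockouts with a median difference of -0.09, where 48.65% of all clusters were lower with a median of 0.0024. Scaling to the mature OSN list moved every gene up by the same amount, and then 6 of 14 Kcnk genes (median 0.0057) and 12.69% of all clusters (median 0.0960) were lower. Leaving out single mice gave 10 to 14 lower Kcnk genes. With Y-linked signal as a covariate, 10 of 14 Kcnk genes (median -0.0337) and 45.35% of all clusters (median 0.0083) were lower. Within the mice of low Y-linked signal (1 control and 3 knockouts), all Kcnk genes but Kcnk2, Kcnk3, Kcnk7 and Kcnk10 were higher in knockouts. Within those of high signal (3 controls and 1 knockout), all but Kcnk1, Kcnk2 and Kcnk10 were lower. These subsets were not tested. All 4 Kcnmb genes were lower, at -0.21 for Kcnmb3, -0.11 for Kcnmb2, -0.11 for Kcnmb4 and -0.23 for Kcnmb1. They were lower also after that scaling, with a median of -0.06, and Kcnmb1 turned to 0.05 without control 2. All 3 Kcnq genes were higher, as were both Kcnt and both Kcnv genes, with Kcnq5 at 0.22 ± 0.12 (limma adjusted p = 0.909), although 1 of the 3 was lower without knockout 1. In the inward rectifiers, 8 were higher and 7 lower, and in the voltage-gated pores 19 were higher and 16 lower. The bright pores Kcnma1 and Kcna2 were at -0.06 ± 0.05 and -0.10 ± 0.06. With the mean of both of its clusters in place of the brighter one, Kcnma1 was at -0.17 (limma adjusted p = 0.847) and joined the lower genes at an unadjusted p under 0.05.

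A small set of Kcn genes varied far more between mice than between groups. Kcne3, a Kcnq1 partner in epithelia, had the largest SD over the 8 mice (0.553, against a median of 0.126 over the Kcn genes and 0.0977 over all clusters). It gave 8.78, 10.45, 9.62 and 8.80 in controls and 9.39, 9.28, 8.91 and 9.50 in knockouts. Kcnj16, an epithelial inward rectifier that pairs with other Kcnj pores, gave 9.15, 10.21, 9.69 and 8.58 in controls and 9.47, 9.46, 8.74 and 9.38 in knockouts. Kcnmb1, the BK subunit of smooth muscle, gave 8.95, 10.12, 9.43 and 8.66 in controls and 9.28, 9.27, 8.52 and 9.19 in knockouts. In all 3 genes control 2 was the highest and knockout 3 the lowest knockout. Kcnj1, the renal-type ROMK channel, had a smaller range, from 8.86 (control 4) to 9.25 (control 3) in controls and from 8.68 (knockout 3) to 9.22 (knockout 2) in knockouts. The SD of Kcnj1 (0.207) was below those of several genes not shown here, such as Kcnk5 and Kcnj5 (both 0.235). Kcnip1 took another course, with 7.07, 7.86, 7.30 and 7.71 in controls and 8.33, 7.57, 7.19 and 7.71 in knockouts. The mean of 10 genes of ciliated respiratory cells ran from 9.94 (control 4) to 10.28 (control 3) in controls and from 10.02 (knockout 3) to 10.27 (knockout 4) in knockouts. The mean of 12 genes of Bowman's gland and secretory cells was 11.99, 11.73, 11.24 and 10.97 in controls and 11.45, 11.46, 11.04 and 11.46 in knockouts. The mean of 10 genes of smooth muscle and pericytes was 10.04, 10.13, 10.11 and 10.02 in controls and 10.07, 10.28, 9.89 and 10.30 in knockouts, and that of 8 endothelial genes was 9.25, 9.34, 9.29 and 9.22 in controls and 9.41, 9.54, 9.01 and 9.63 in knockouts. These 4 lists were lowest in control 4 among controls and in knockout 3 among knockouts. The list of 13 myeloid genes shared this order (8.96 and 8.94). The mean of 12 genes of sustentacular (supporting) cells did not, and was lowest in control 3 (12.32) and knockout 1 (12.30). Lists of ensheathing glia and skeletal muscle genes were lowest in control 1 (9.54 and 7.65) and knockout 3 (9.50 and 7.62). Control 2 was the highest control in the smooth muscle, endothelial and myeloid lists, but not in the ciliated and Bowman's gland lists. Kcne3 was lowest among controls in control 1. Beside Kcnip1, the mean of 9 neuronal genes of bulb and brain was 7.88, 8.53, 8.02 and 8.22 in controls and 8.56, 8.11, 8.07 and 8.03 in knockouts, so that control 1 was the lowest control, control 2 the highest control and knockout 1 the highest knockout in both. Knockout 1 was also the highest mouse for Kcnd2 and Kcnh1. The part of these cells, and of the myeloid genes of control 2, in the Kcn values was not tested. The differences between groups were -0.14 ± 0.35 for Kcne3, -0.15 ± 0.33 for Kcnj16 and -0.23 ± 0.31 for Kcnmb1, all within their error, and each turned positive without control 2 (0.21, 0.12 and 0.05).

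**Figure D5:**
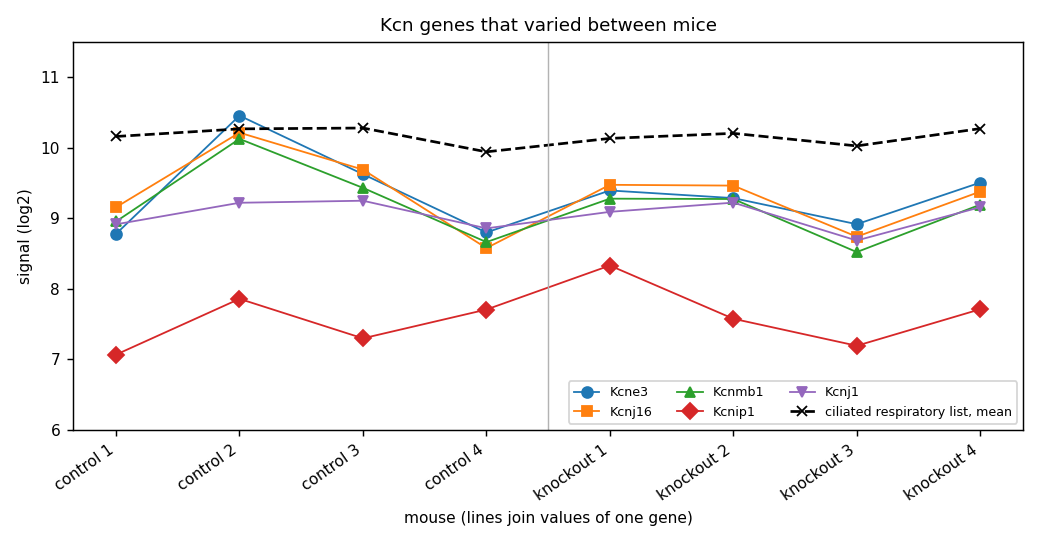
Log2 signal (vertical axis) of Kcne3, Kcnj16, Kcnmb1, Kcnip1 and Kcnj1 in each of the 8 mice (horizontal axis), with the mean of 10 ciliated respiratory genes as a dashed line. Lines only join the values of a gene and mice have no order. Control 2 is highest for Kcne3 (10.45), Kcnj16 (10.21) and Kcnmb1 (10.12), and control 4 and knockout 3 are low for these genes.

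Genes that work with potassium channels were read beside them. Of 11 measured channel subunit genes outside the Kcn names, 0 were higher and 2 lower at an unadjusted limma p under 0.05. Over all clusters 2.62% were higher and 2.55% lower at that level, as for the lists that follow. Both lower genes encode hyperpolarisation-activated cation channels, which form pores of their own. None of the listed subunits that bind potassium channel pores (Dpp, Abcc and Lrrc genes) reached that level. Hcn2 gave 10.26, 10.05, 9.96 and 10.29 in controls and 9.80, 9.67, 10.04 and 9.76 in knockouts, a difference of -0.32 ± 0.10 (limma adjusted p = 0.837). Hcn4 gave 10.20, 10.14, 10.05 and 10.28 in controls and 10.10, 9.90, 10.05 and 9.92 in knockouts, a difference of -0.17 ± 0.07 (limma adjusted p = 0.909). In Hcn2, as in Kcnab2, control 3 was the lowest control and knockout 3 the highest knockout. Of 20 measured scaffold and anchoring genes none reached that level, and the smallest p was that of Adam23 (0.12 ± 0.06). Among 12 measured genes of potassium pumping and cotransport, 1 was higher, the sodium pump subunit Atp1b2 (0.16 ± 0.07, limma adjusted p = 0.909). None of 12 measured sodium channel genes reached it, and Scn8a had the smallest p (-0.12 ± 0.06).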

How the data were processed

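The deposited values were log2 signals per transcript cluster, made by the authors from single-mouse arrays with Affymetrix Expression Console, for which the submitters' processing notes give no version. The summarisation algorithm and genome build are not given in the sources used here. Array medians were 8.64 to 8.68, so no further normalization was applied. Probes outside a deleted stretch and probe affinity can affect levels, and the number of arrays limits the precision. Groups came from the labels. Replicate numbers followed accession order and pair nothing. The methods state that the mice came from several litters, which the labels do not name, so litter could not enter the model. Each limma p-value sets the difference between groups against the spread between mice within groups, moderated over all clusters. Litter and sex remain in that spread. Sex, which was not balanced between the groups, can also enter the difference itself.

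Of 35557 clusters, 21789 with exactly 1 symbol were fitted with limma 3.58.1 (R 4.3.3; lmFit and eBayes, two-sided, Benjamini-Hochberg over all), after tests on simulated data. Symbols came from the platform annotation (21698 were found in the GRCm38.p6 gene table; 1621 clusters had several symbols). Values per mouse are given for Kcn genes at p under 0.05, the 10 of highest signal and the highest in each subfamily of 3 or more. Kcne3, Kcnj16, Kcnmb1, Kcnip1, Kcnj1, Kcna1, Kcnq5 and the Kcnmb genes were shown after their values were seen. The members and lists were chosen with earlier results of these data known. Alternatives were quantile normalization, scaling to mature OSN genes, array weights, Y-linked signal as a covariate, the methods' t-test, brighter clusters only, averaging a gene's clusters and leaving out each mouse. The values within mice of like Y-linked signal were added after seeing the data.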

Additional observations from a re-analysis of the deposited data

Results flagged for a closer look

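Each of 62 groups of 4 mice (31 Kcn genes, knockouts and controls) was screened for a mouse far from the rest. Such a mouse was found in 4 groups, all of them knockouts. Chance flags about 1 in 20 groups where genes are chosen without regard to their spread. Kcnj16 and Kcnmb1 were shown after their values were seen, so this rate does not apply to their groups. Kcnc4 was 10.87 in knockout 3, with the others between 10.68 and 10.71. Kcnd2 was 9.52 in knockout 1, with the others between 9.07 and 9.13. Kcnj16 was 8.74 in knockout 3, with the others between 9.38 and 9.47. Kcnmb1 was 8.52 in knockout 3, with the others between 9.19 and 9.28. Knockout 3 was thus the distant mouse in 3 of the 4, high for Kcnc4 and low for Kcnj16 and Kcnmb1. It was also the only knockout with high Y-linked signal, whose part in these values was not tested.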

How the results depend on the processing

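No paired analysis was possible because the labels give the mice no shared replicate numbers. No Kcn gene passed an adjusted p of 0.05 under any of the 15 alternatives (0 to 0 on leaving out single mice). The number of Kcn genes higher at an unadjusted limma p under 0.05 (4) was 1 among the 26 genes above the median signal, where fewer genes were tested, and 3 to 7 on leaving out single mice, with 7 without control 2. The number lower (5) was 1 when arrays were scaled to the mature OSN list (0.418% of all clusters, against 2.55%), 3 with the methods' t-test, 2 among the genes above the median signal, and 2 to 7 on leaving out single mice, with 2 without control 4 or knockout 2 and 7 without knockout 3. The median difference over the Kcn genes was 0.0873 when arrays were scaled to mature OSN genes (all clusters 0.0960), -0.0810 among genes above the median signal, and -0.0348 to 0.0041 on leaving out single mice. The direction turned within the mice of high Y-linked signal for 34 of the 92 Kcn genes and within those of low signal for 33. Among the genes whose difference is given, these were, with high signal, Kcnc4 (0.0326), Kcnq5 (-0.13), Kcnmb2 (0.0678), Kcnk10 (0.0835) and Kcna4 (-0.11), and with low signal, Kcnmb1 (0.29), Kcnj13 (-0.0553), Kcne3 (0.62) and Kcnj16 (0.28). On leaving out single mice, Kcnmb1 ran from -0.44 to 0.0503, Kcne3 from -0.35 to 0.21 and Kcnj16 from -0.42 to 0.12, each highest without control 2, and Kcnj16 also turned without knockout 3 (0.0293). Kcnma1 was at 0.0381 when arrays were scaled to mature OSN genes, below the median of all clusters there (0.0960) as in the unscaled values. It was at -0.17 with the mean of its clusters. The direction turned for Kcne3 (0.0267) and Kcnj16 (0.0371) with array weights, and Kcnh1 and Kcnmb3 left an unadjusted p under 0.05 with Y-linked signal as a covariate. The cause was not tested.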

Other observations

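For 3 Kcn genes the array holds a second cluster. Kcna2 had one at 9.30 (mean over 8 mice) beside 11.29, and Kcnh8 one at 9.44 beside 10.30, with differences of -0.02 ± 0.11 and 0.06 ± 0.08 (limma adjusted p = 0.989 and 0.938). Kcnma1 had one at 5.96 beside 11.30, with a difference of -0.28 ± 0.11 (limma adjusted p = 0.909), against -0.06 ± 0.05 for its bright cluster. The dim cluster lay below most genes of other organs, and what it detects was not tested.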
